A study of Mus musculus with 20 samples.

Results

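The *Bcl2* family holds the genes that set the mitochondrial threshold for cell death, and 10 of its members were followed here through a set of mouse T cell acute lymphoblastic leukemias (T-ALLs). They were taken by name, as the rows of the deposited table whose Ensembl identifiers map to *Bcl2*, *Bcl2l1*, *Mcl1*, *Bcl2l11*, *Bbc3*, *Bmf*, *Pmaip1*, *Bid*, *Bax* and *Bak1*. All 10 were found among the 39017 genes of the table, and all 10 were among the 11339 genes that passed the filter on low values, a mean of at least 1 FPKM (counted fragments scaled to exon length and library total) over the libraries used.

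The leukemias were generated by insertional mutagenesis with the MOL4070LTR retrovirus in C57Bl/6 x 129Sv/Jae F1 mice, and each was transplanted into irradiated wild-type recipients, whose marrow gave the RNA. Donor genotypes were not analysed here, and the labels give no age. Each of 9 leukemias (20M, 2M, 5C, 73A, 73M, 78A, 8633, JW14 and JW81) had 2 libraries, and the name of one column carries the letters VEH while the other carries DEX, letters that neither the labels nor the methods explain. The 2 libraries of a leukemia share its donor clone, so the leukemia was the replicate (n = 9), and the difference in response between 2 leukemias, each with 1 pair, could not be tested.

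The proteins of this family work by binding one another at the outer mitochondrial membrane. The pro-survival proteins BCL2, BCL-XL (*Bcl2l1*) and MCL1 hold the pore-forming effectors BAX and BAK (*Bak1*) in check. The BH3-only proteins BIM (*Bcl2l11*), PUMA (*Bbc3*), BMF, NOXA (*Pmaip1*) and BID carry a short helix, the BH3 domain, with which they occupy the groove of the pro-survival proteins or engage the effectors directly. Once the effectors open the membrane, cytochrome c is released, the apoptosome assembles and caspases are activated. In thymocytes and lymphoid leukemias, BIM is known for its part in death by glucocorticoids and by cytokine loss.

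The coding bases of the BH3 core are shown for the 3 members that differed between DEX and VEH columns and, for comparison, for 1 pro-survival gene and 1 effector. Each window has 45 coding bases from a single exon of a GENCODE M21 transcript (GRCm38), written 5′ to 3′ along the coding strand. The capitals mark the 6 codons of the core (leucine, any 3 residues, glycine or alanine, aspartate). The search also required a hydrophobic residue (cysteine included) at a set distance before the leucine. This longer pattern was found once in each protein.
*Bcl2l11* (chr2:128147138-128147182, plus strand): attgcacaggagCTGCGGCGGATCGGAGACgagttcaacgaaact
*Bbc3* (chr7:16313761-16313805, plus strand): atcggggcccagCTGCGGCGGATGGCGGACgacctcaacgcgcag
*Bmf* (chr2:118545094-118545138, minus strand): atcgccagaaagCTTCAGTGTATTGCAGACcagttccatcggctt
*Bcl2* (chr1:106712569-106712613, minus strand): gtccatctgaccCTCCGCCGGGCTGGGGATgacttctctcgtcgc
*Bax* (chr7:45465991-45466035, minus strand): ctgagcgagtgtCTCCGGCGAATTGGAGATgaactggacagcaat
The small residue before the aspartate is encoded as alanine in *Bbc3* and *Bmf* and as glycine in the other 7 members searched, which include all 3 pro-survival genes and both effectors.

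The libraries of the 9 leukemias held between 8226528 (DEX of JW14) and 201222288 (VEH of 73M) expected counts, with a median of 24451898. Counts on ribosomal RNA genes exceeded 1 CPM (counts scaled to the library total) in 5 libraries, those named DEX of JW81, JW14, 73M and 20M and that named VEH of 5C, so this technical feature runs partly along the comparison of the letters. All 12 T lineage markers searched were above the filter, with summed levels of 525 to 1310 FPKM in VEH and 548 to 1180 in DEX columns. RNA of marker genes of other marrow cells was unequal between libraries: 8 neutrophil markers summed to 45.8 to 4450 FPKM in VEH and 22.1 to 2600 in DEX columns, and 9 erythroid markers to 1.90 to 769 and 3.75 to 102. The B lineage markers *Pax5*, *Vpreb1* and *Igll1* were below 1 FPKM in every library, and the 9 B lineage markers summed to at most 29.8 FPKM. The mean log2(FPKM + 1) of 3 marker lists was lower in DEX columns in 8 of 9 leukemias for T lineage (mean change -0.08), in 7 of 9 for neutrophil (-0.39) and in 6 of 9 for myeloid markers (-0.19). Of the genes tested in these 3 lists, 1 of 12, 1 of 8 and 1 of 6 were called lower and 0 higher, where 6.79% of all genes were called lower. The other lists were more mixed. Erythroid markers were lower in 4 of 9 leukemias (mean change -0.29, from -2.5 to 0.43) and B lineage markers in 5 of 9 (-0.15, from -0.99 to 0.04). Of the 7 erythroid genes and 1 B lineage gene tested, 0 were called. The part of these features in the results below was not tested except where a value is given. Since the RNA is from bulk marrow, fewer cells of a type and less RNA per cell cannot be told apart for any gene.

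The BH3-only genes *Bcl2l11*, *Bbc3* and *Bmf* rose in the DEX columns, and no pro-survival gene or effector passed the test in either direction. *Bcl2l11* was 2.06-fold, *Bmf* 2.54-fold and *Bbc3* 2.78-fold higher in DEX than in VEH columns (n = 9), each in 9 of 9 leukemias. The paired edgeR quasi-likelihood test called 1475 of 11339 genes (13.0%) at an adjusted p below 0.05, of which 705 (6.22%) were higher and 770 (6.79%) lower in DEX columns. Against these shares, 3 of the 10 members were called higher and 0 lower. The same 3 and no other member had an unadjusted p below 0.05, and DESeq2 called the same 3. Across all genes tested, 339 (2.99%) were higher in DEX in all 9 leukemias, and 3 of the 10 members were, the same 3. The median log2 fold change was 0.12 over the 10 members and 0.004 over all genes tested.

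*Bcl2l11* (ENSMUSG00000027381, chr2:128126038-128162547, plus strand) encodes BIM, which binds every pro-survival protein of the family. Its level was 3.05 FPKM at the lowest, 6.91 at the median and 9.97 at the highest in the 9 VEH columns, and 6.56, 14.0 and 22.6 in the 9 DEX columns. The ranges overlapped, because JW14 and 8633 reached only 6.56 and 7.76 FPKM in DEX while 2M and 73M already stood at 9.97 and 9.40 in VEH, but within each leukemia DEX was the higher. The paired log2 fold change was 1.04 ± 0.15 (SE, n = 9, edgeR adjusted p = 0.00247).

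The size of the *Bcl2l11* difference varied between leukemias from 0.39 to 1.81 on the log2 scale. It was largest in JW81, where the level went from 7.03 to 22.6 FPKM, and in 20M, where it went from 5.17 to 17.1. The smallest were in 5C (8.26 to 10.4 FPKM), 8633 (5.59 to 7.76) and 73M (9.40 to 13.1). In between, 78A went from 6.17 to 14.7 FPKM, 73A from 6.91 to 14.0, JW14 from 3.05 to 6.56 and 2M from 9.97 to 18.2. The DEX levels did not keep the order of the VEH levels. For example, 20M and 8633 started close together at 5.17 and 5.59 FPKM and ended at 17.1 and 7.76.

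*Bmf* (ENSMUSG00000040093, chr2:118528757-118549687, minus strand) encodes a BH3-only protein that is held at the cytoskeleton through dynein light chain until it is freed. It measured 0.320, 9.23 and 30.4 FPKM (lowest, median, highest) in VEH columns and 0.427, 32.4 and 60.4 in DEX columns. The log2 fold change was 1.34 ± 0.19 (SE, n = 9, edgeR adjusted p = 0.00231), with changes of 0.38 to 2.23 in single leukemias. The ranges overlapped widely, since *Bmf* differed far more between leukemias than between the letters. It rose from 9.93 to 44.6 FPKM in 73A and from 7.91 to 32.4 in JW81. In 8633 it went from 3.60 to 4.50 FPKM and in 5C from 0.320 to 0.427, where it rested on 19 and 64 counts.

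*Bbc3* (ENSMUSG00000002083, chr7:16308393-16318205, plus strand) encodes PUMA, a p53 target that also responds to other death signals. Its level was 0.805, 1.56 and 5.00 FPKM (lowest, median, highest) in VEH columns and 2.69, 4.99 and 8.72 in DEX columns. Again the ranges overlapped while all 9 pairs went the same way, with a log2 fold change of 1.48 ± 0.29 (SE, n = 9, edgeR adjusted p = 0.0104). The spread among leukemias was the widest of the 3 genes, from 0.22 in 73A (3.22 to 3.61 FPKM) to 3.28 in 73M (0.805 to 7.30). The VEH library of 73M is the deepest of the set, and without 73M the log2 fold change was 1.24 (adjusted p = 0.0150). The marker means of 73M also differed between its libraries, with changes in DEX of -2.50 for erythroid, -1.29 for neutrophil, -0.99 for B lineage and -0.69 for myeloid markers, the lowest of the 9 leukemias (for myeloid markers level with JW81). Across leukemias, the *Bbc3* changes had a Pearson r of -0.65 with those of the myeloid and -0.57 with those of the neutrophil mean (for *Bmf* -0.57 and -0.53, for *Bcl2l11* -0.22 and -0.14, and -0.64 with the T lineage mean). With the B lineage mean, *Bbc3* had -0.56. The largest r belonged to members not called between the letters. They were -0.9 (erythroid) and -0.84 (B lineage) for *Bcl2*, -0.83 (T lineage) for *Pmaip1*, and 0.73 (B lineage) and 0.72 (erythroid) for *Bid*. These are descriptions over 9 points from shared libraries, and the part of the markers was not tested. *Bbc3* rested on 47 to 529 counts per library.

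**Figure D1:**
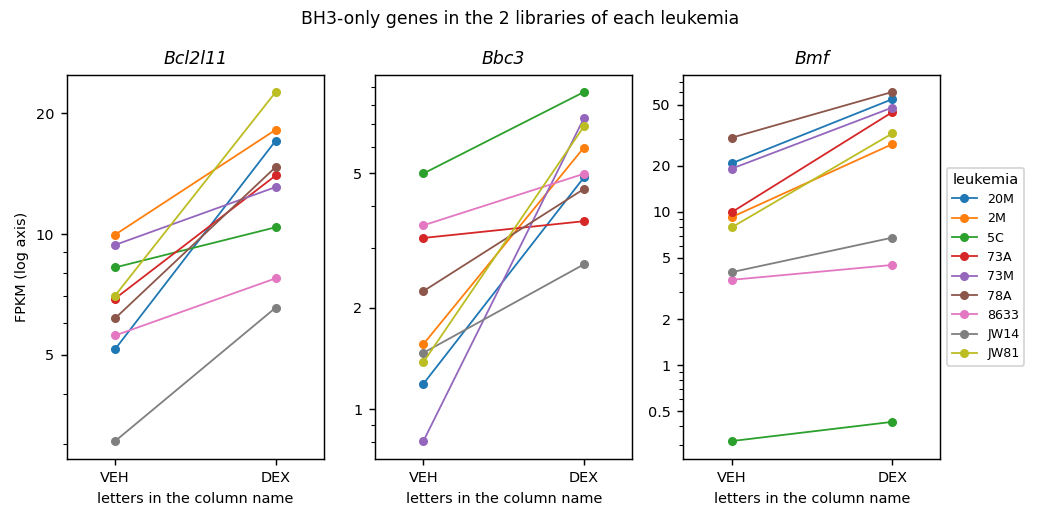
FPKM (log axis) of *Bcl2l11*, *Bbc3* and *Bmf* in the VEH and the DEX column of each of 9 leukemias, with 1 line per leukemia. Every line rises from VEH to DEX, and the *Bmf* line of 5C (0.320 to 0.427 FPKM) lies below all others.

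The 3 differences were also measured with the ribosomal RNA counts in view. Among the 4 leukemias without such a library, *Bcl2l11* differed by 0.94 on the log2 scale (adjusted p = 0.0169) and *Bmf* by 1.32 (0.0372), while *Bbc3* differed by 0.94 and missed the threshold (0.0786). Among the 5 leukemias with one, the differences (*Bcl2l11*, *Bmf* and *Bbc3*) were 1.12, 1.36 and 1.92, and none passed (adjusted p = 0.107, 0.0799 and 0.10). With a term for these libraries in the model, all 3 were called, at 0.90, 1.23 and 1.21 (adjusted p = 0.00945, 0.0203 and 0.0318). Leaving the leukemia out of the model removed all 3 calls, with 8 genes called in all, while the log2 fold changes were 1.07, 1.46 and 1.35 (adjusted p = 0.122, 0.827 and 0.189, in the same order).

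The other BH3-only members did not pass. *Pmaip1* (ENSMUSG00000024521), which encodes NOXA, an antagonist of MCL1, differed by 0.18 ± 0.20 on the log2 scale (SE, n = 9, edgeR adjusted p = 0.555), with single leukemias from -0.90 in 73M to 1.42 in JW14. Its levels were low, at 0.111, 0.373 and 5.29 FPKM (lowest, median, highest) in VEH and 0.0642, 0.311 and 6.53 in DEX columns, and as few as 4 counts lay behind a value. *Bid* (ENSMUSG00000004446), whose product is cleaved by caspase-8 and links death receptors to the mitochondria, measured 9.04, 18.1 and 21.6 FPKM in VEH and 7.26, 15.7 and 23.3 in DEX columns. Its log2 fold change was -0.11 ± 0.083 (adjusted p = 0.376), with 3 of 9 leukemias higher in DEX.

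The pro-survival members differed little between the letters. *Bcl2* (ENSMUSG00000057329) measured 2.24, 6.77 and 10.9 FPKM in VEH and 2.06, 6.31 and 10.3 in DEX columns, and its log2 fold change was 0.03 ± 0.072 (SE, n = 9, edgeR adjusted p = 0.832). The widest single changes of *Bcl2* were 0.44 in 73M and -0.20 in 5C. *Bcl2l1* (ENSMUSG00000007659), the gene of BCL-XL, measured 1.25, 6.10 and 15.8 FPKM in VEH and 1.14, 6.10 and 15.6 in DEX columns. It differed by -0.15 ± 0.072 (adjusted p = 0.170), with -0.48 in 73M and -0.45 in 78A and nearly level values in 2M (6.10 and 6.10 FPKM) and 5C (8.93 and 8.83). *Mcl1* (ENSMUSG00000038612), whose protein is short-lived and needed by thymocytes, measured 44.1, 64.1 and 78.0 FPKM in VEH and 42.0, 75.5 and 84.6 in DEX columns. Its log2 fold change was 0.13 ± 0.073 (adjusted p = 0.229), from -0.26 in JW14 to 0.43 in 73A. It was 0.33 (adjusted p = 0.0539) among the 4 leukemias without ribosomal RNA counts and -0.03 (0.866) among the 5 with them.

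The effectors were likewise close. *Bax* (ENSMUSG00000003873) measured 12.8, 18.5 and 29.1 FPKM in VEH and 11.1, 16.9 and 27.7 in DEX columns, with a log2 fold change of -0.10 ± 0.084 (SE, n = 9, edgeR adjusted p = 0.447). *Bak1* (ENSMUSG00000057789) measured 16.3, 19.1 and 22.1 FPKM in VEH and 16.6, 19.3 and 21.2 in DEX columns, with 0.10 ± 0.048 (adjusted p = 0.160) and 7 of 9 leukemias higher in DEX. For the 7 members that were not called, the estimates lay between -0.15 and 0.18, against 1.04 to 1.48 for the 3 that were.

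**Figure D2:**
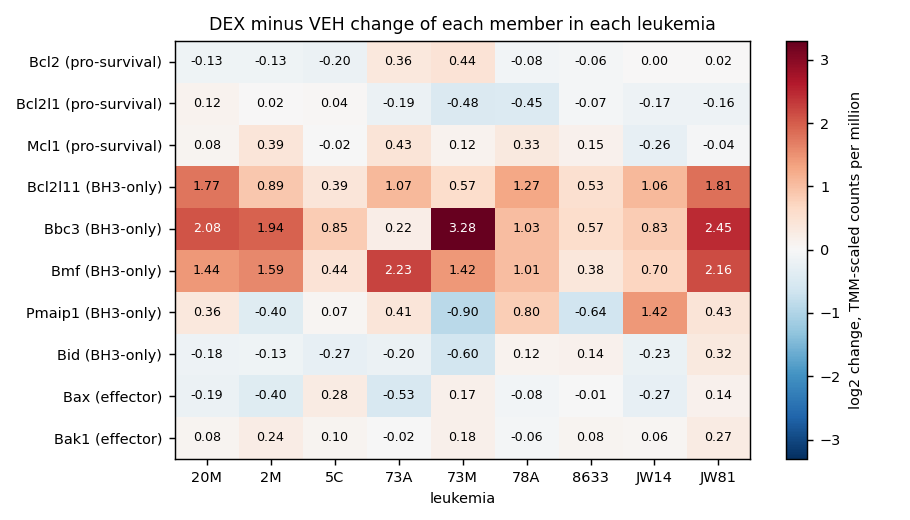
DEX minus VEH change (log2 of TMM-scaled CPM, colour and printed value) of the 10 members (rows) in each of 9 leukemias (columns). The rows of *Bcl2l11*, *Bbc3* and *Bmf* are positive throughout, from 0.22 to 3.28, while each of the other 7 rows holds both signs.

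Within leukemias, the 3 called genes did not move in fixed proportion. *Bbc3* had the largest change of the 3 in 73M (3.28) and the smallest in 73A (0.22), where *Bmf* had its own largest change (2.23). JW81 was high for all 3 genes, with 1.81, 2.45 and 2.16 (*Bcl2l11*, *Bbc3* and *Bmf*), while 20M, at 1.77, 2.08 and 1.44, was high for the first 2 and near the median of 1.42 for *Bmf*. 8633 was low for all 3, with 0.53, 0.57 and 0.38. Across the 9 leukemias, the changes of *Bcl2l11* and *Bmf* had a Pearson r of 0.58 (Spearman rho 0.65), those of *Bcl2l11* and *Bbc3* 0.24 (0.30) and those of *Bbc3* and *Bmf* 0.36 (0.27). These are descriptions over 9 points whose values share the same pair of libraries.

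Set against the pro-survival genes per length of exon, the 3 genes took a larger share in the DEX columns. The *Bcl2l11* level divided by the *Bcl2* level was 0.506, 1.11 and 2.49 (lowest, median, highest) in VEH and 1.26, 2.32 and 3.85 in DEX columns, and it was higher in DEX in 9 of 9 leukemias. The summed FPKM of *Bcl2l11*, *Bbc3* and *Bmf* divided by that of *Bcl2*, *Bcl2l1* and *Mcl1* was 0.135, 0.256 and 0.427 in VEH and 0.268, 0.656 and 0.840 in DEX columns. The pro-survival sum itself was higher in DEX in 5 of 9 leukemias, at 56.9 to 103 FPKM in VEH and 54.1 to 104 in DEX columns. *Mcl1* made up 75.2% to 94.8% of it in every library. The genes of these sums were picked after their values were seen, so the ratios are a description and carry no test.

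**Figure D3:**
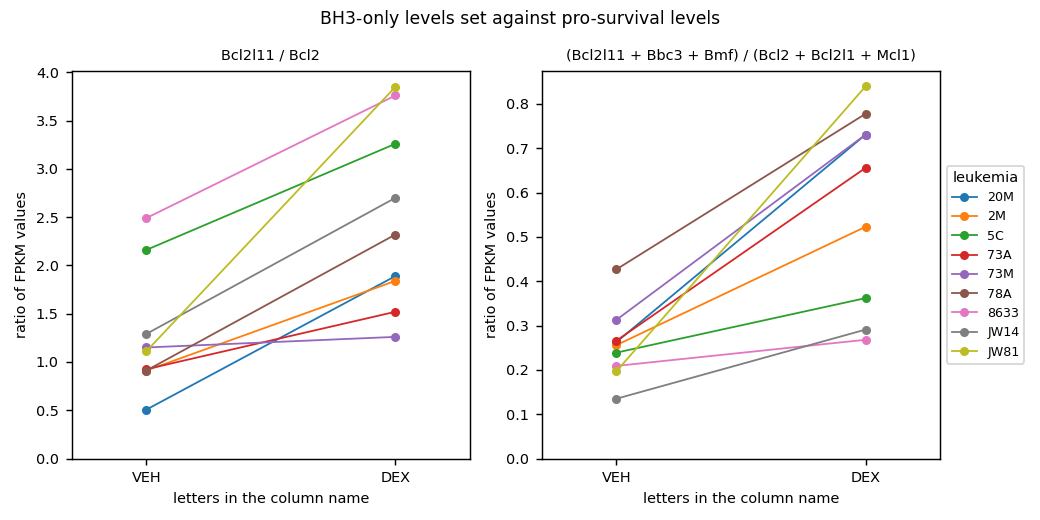
Ratio of FPKM values in the VEH and the DEX column of 9 leukemias, 1 line each: *Bcl2l11* over *Bcl2* (left) and the sum of 3 BH3-only genes over the sum of 3 pro-survival genes (right). All lines rise, and the DEX ratio of sums lies between 0.268 in 8633 and 0.840 in JW81.

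The leukemias differed from one another in most members. A joint edgeR test of the leukemia terms, with the letters as a covariate, called 9 of the 10 members, all but *Bbc3* (adjusted p = 0.319). This share is near that of all genes, of which 9351 of 11339 (82.5%) were called, so it does not set the family apart. The members differed in how far apart the leukemias lay, from 1.31-fold between the highest and the lowest leukemia mean for *Bak1* to 122-fold for *Bmf*.

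Of the pro-survival genes, *Mcl1* was the most abundant per length and the most even. Its leukemia means (over the 2 libraries) ran from 43.1 FPKM in 5C to 78.8 in 20M, a ratio of 1.83 (edgeR adjusted p = 0.00509), and 6 of the 8 gaps between neighbours in the order were smaller than the within-leukemia SD. *Bcl2* fell into a wider order, with 2.15 FPKM in 8633, 2.39 in JW14, 3.51 in 5C, 6.11 in JW81, 6.54 in 78A, 8.34 in 73A, 9.25 in 73M, 9.63 in 20M and 10.4 in 2M (adjusted p = 3.6e-07). The widest step, 0.66 on the log2(FPKM + 1) scale against a within-leukemia SD of 0.13, was that from 5C to JW81. The gaps between 4 of the 8 neighbouring pairs were below that SD.

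*Bcl2l1* spanned 12.7-fold, from 1.20 FPKM in JW14, 1.33 in 8633 and 2.20 in JW81 through 4.58 in 73A, 6.10 in 2M, 8.88 in 5C and 9.15 in 73M to 13.5 in 78A and 15.2 in 20M (edgeR adjusted p = 7.46e-09). Its order was not that of *Bcl2*: 5C was among the 3 lowest for *Bcl2* but among the 4 highest for *Bcl2l1*. 8633 and JW14 were the lowest in both genes, and there *Mcl1* made up 93.5% to 94.8% of the pro-survival sum.

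**Figure D4:**
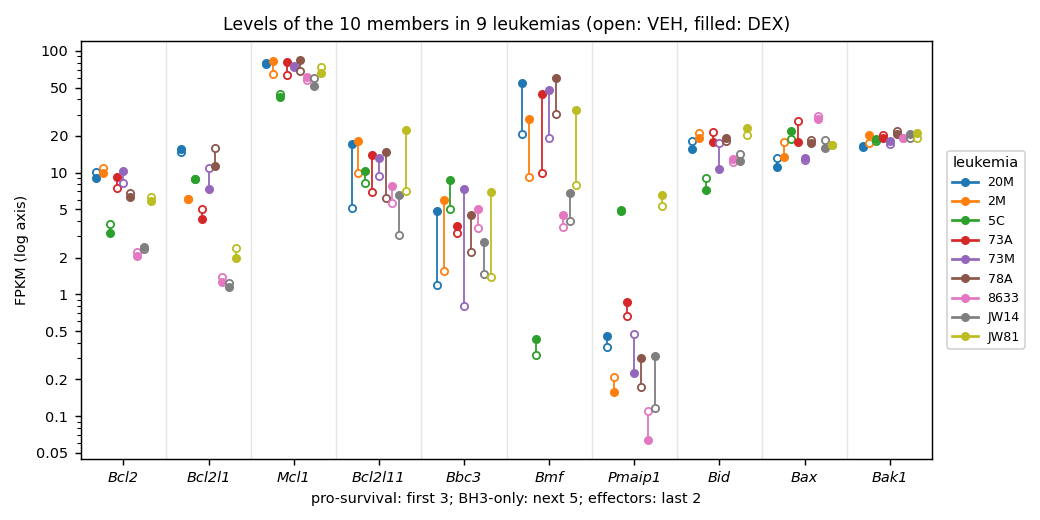
FPKM (log axis) of the 10 members in the VEH (open) and DEX (filled) library of each of 9 leukemias, with a line joining the libraries of a leukemia. *Mcl1* and *Bak1* form tight bands, *Bmf* and *Pmaip1* spread over the widest ranges (leukemia means 0.373 to 45.4 and 0.0876 to 5.91 FPKM), and the joining lines are long in *Bcl2l11*, *Bbc3* and *Bmf*.

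Among the BH3-only genes, *Bmf* had the widest range. Its leukemia means were 0.373 FPKM in 5C, 4.05 in 8633, 5.41 in JW14, 18.4 in 2M, 20.2 in JW81, 27.3 in 73A, 33.4 in 73M, 37.5 in 20M and 45.4 in 78A (edgeR adjusted p = 3.05e-06). The widest step was that from 5C to 8633, of 1.88 on the log2(FPKM + 1) scale against a within-leukemia SD of 0.48. *Pmaip1* showed another pattern, at 5.91 FPKM in JW81 and 4.86 in 5C but 0.0876 to 0.768 in the other 7 leukemias (adjusted p = 1.25e-07). It passed the filter (mean 1.45 FPKM) only through JW81 and 5C, so this call is no support beyond the values themselves. In this gene 5C, the lowest for *Bmf*, was the second highest.

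*Bcl2l11* varied 3.08-fold between leukemia means, from 4.80 FPKM in JW14 and 6.67 in 8633 to 14.1 in 2M and 14.8 in JW81, with the other 5 leukemias between 9.35 and 11.2. The test between leukemias called it (edgeR adjusted p = 0.0135), but 6 of its 8 neighbouring gaps were below the within-leukemia SD, and without either library of JW14 the adjusted p was 0.0631 or 0.0642. *Bid* ran from 8.15 FPKM in 5C to 21.9 in JW81 (adjusted p = 0.000268). *Bbc3* ran from 2.08 FPKM in JW14 to 6.86 in 5C, a range of 1.34 on the log2(FPKM + 1) scale beside a within-leukemia SD of 0.49. It became a call when the DEX library of 73M was left out (adjusted p = 0.0459) or without the filter on low values (0.046). *Bax* ran from 12.1 FPKM in 20M to 28.4 in 8633 (adjusted p = 0.000677). *Bak1* ran from 16.4 FPKM in 20M to 21.5 in 78A (adjusted p = 0.0401), a call that 13 of the 18 fits without 1 library lost.

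By the mean of their 2 libraries, the 3 leukemias lowest in *Bmf* (5C, 8633 and JW14) were also the 3 lowest in *Bcl2*, *Mcl1*, *Bid* and *Bcl2l11*, and in them *Dtx1*, a target of NOTCH signalling, was at 0.157 to 0.166 FPKM, against 42.9 to 119 in the other 6. In single libraries this did not hold for *Bcl2l11* in VEH columns, where 20M (5.17 FPKM) was below 8633 (5.59) and 5C (8.26). There 78A (6.17 FPKM), 73A (6.91) and JW81 (7.03) were below 5C as well. Nor did it hold for *Bid* in DEX columns, where 73M (10.8) was below JW14 (12.4) and 8633 (12.9). The other 5 members did not follow that division by the mean, with 5C at 8.88 FPKM for *Bcl2l1* and 4.86 for *Pmaip1*. This was noticed after the values were seen and is given as values alone. Over the 9 leukemia means of log2(FPKM + 1), the genes most like *Bcl2l11* among the 11338 others were *Trp53i13* (Pearson r = 0.950), *Slc11a2* (0.936) and *Gm17084* (0.934), and those most like *Bcl2* were *Purg* (0.995), *Lrig2* (0.993) and *Eps15l1* (0.993). Among members, r was 0.80 (Spearman rho 0.72) between *Bcl2l11* and *Bcl2*, 0.77 (0.77) between *Bcl2* and *Mcl1* and 0.34 (0.75) between *Bcl2l1* and *Mcl1*. With 9 points that share libraries these are descriptions. Over the same points, the mean of the T lineage markers had an r of 0.82 with *Mcl1*, 0.82 with *Bmf* and 0.79 with *Bcl2*. That of the neutrophil markers had 0.78 with *Bcl2l11* and 0.74 with *Bcl2*, and that of the myeloid markers 0.77 with *Bcl2* and 0.68 with *Bcl2l11*. The part of the marker levels in the order of these members was not tested.

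Other genes of the cell death pathway were taken from lists. Of the 13 other family members listed, 11 were in the table, 6 were tested and 0 were called by edgeR in either direction (0 higher and 1 lower at an unadjusted p below 0.05, and 0 by DESeq2). The most abundant were *Bcl2l13* (log2 fold change 0.09 ± 0.056 SE, adjusted p = 0.308) and *Bcl2l12* (0.01 ± 0.095, adjusted p = 0.976). *Bcl2l15*, which lay under the filter and was not tested, measured 0.520 ± 0.26 FPKM (SD, n = 9) in VEH and 1.34 ± 1.02 in DEX columns and was higher in DEX in 8 of 9 leukemias (named after its values were seen). Of the 14 apoptosome and caspase genes, 0 were higher and 3 lower at an unadjusted p below 0.05. After adjustment 1 of the 14 was lower with edgeR and with DESeq2, near the 6.79% of all genes called lower. This was *Casp8*, the initiator caspase of death receptors, at 44.4 ± 17.9 FPKM (SD, n = 9) in VEH and 35.8 ± 14.9 in DEX columns (log2 -0.25 ± 0.061 SE, adjusted p = 0.0219).

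Of the 6 caspase inhibitor genes, 2 were higher and 0 lower in DEX columns, beside 6.22% and 6.79% of all genes, and DESeq2 called 3 higher and 0 lower. *Birc5*, which encodes survivin and is also a mitotic gene, rose by 0.33 ± 0.067 on the log2 scale (SE, edgeR adjusted p = 0.0112, 8 of 9 leukemias), and *Birc3*, the gene of cIAP2, by 0.25 ± 0.052 (adjusted p = 0.0123, 9 of 9). Of the 16 regulators listed, 15 were tested, with 0 higher and 3 lower beside the same shares (0 and 5 at an unadjusted p below 0.05, 0 and 3 by DESeq2). These were *Mir17hg*, the host transcript of the miR-17 to miR-92a cluster (log2 -0.93 ± 0.19, adjusted p = 0.0116), *Ddit3*, which encodes the stress factor CHOP (-0.53 ± 0.13, adjusted p = 0.0258), and *Dynll1*, a dynein light chain gene (-0.35 ± 0.10, adjusted p = 0.0458). The calls of *Casp8*, *Ddit3* and *Dynll1* were each lost without 20M, without 73A or without 73M, and that of *Ddit3* also without 2M. *Dynll1* was called in 9 of 21 alternatives, and lost without 2M, 8633, JW14 or JW81 as well. All 6 calls of these lists were lost without the replicate block and among the 5 leukemias with ribosomal RNA counts. Over the 21 alternatives each of the 6 kept its sign, with log2 fold changes of -1.05 to -0.79 for *Mir17hg*, -0.79 to -0.33 for *Ddit3*, -0.52 to -0.13 for *Dynll1*, -0.32 to -0.18 for *Casp8*, 0.21 to 0.30 for *Birc3* and 0.24 to 0.44 for *Birc5*. Among the 4 leukemias without ribosomal RNA counts those of *Casp8*, *Dynll1*, *Birc3* and *Mir17hg* were lost, and with a term for these counts those of *Casp8*, *Dynll1*, *Birc3* and *Ddit3*. The call of *Birc3* was also lost without the filter on low values. Without both 2M and 73A all 6 were lost, *Birc5* included. The median log2 fold changes were 0.04, -0.12, 0.08 and -0.11 for the 4 lists, against 0.004 for all genes tested.

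For the letters, 12 glucocorticoid-induced genes were listed with earlier results of these data known. Their values are therefore a description and not an independent check of what DEX stands for. Of the 9 tested, 6 were higher and 0 lower in DEX columns, beside 6.22% and 6.79% of all genes (8 and 0 at an unadjusted p below 0.05, 6 and 0 by DESeq2). The 6 were *Zbtb16* (1.61 ± 0.39 on the log2 scale, SE, edgeR adjusted p = 0.0218), *Klf9* (1.47 ± 0.21, adjusted p = 0.00268), *Ddit4* (1.44 ± 0.19, adjusted p = 0.00174), *Tsc22d3* (1.11 ± 0.20, adjusted p = 0.00701), *Dusp1* (0.96 ± 0.15, adjusted p = 0.00414) and *Fkbp5* (0.94 ± 0.11, adjusted p = 0.00113), each higher in 9 of 9 leukemias. Not called were *Per1* (0.81 ± 0.3, adjusted p = 0.0895), *Mt1* (0.6 ± 0.26, adjusted p = 0.143) and *Sgk1* (0.31 ± 0.17, adjusted p = 0.242). Of those under the filter, *Mt2* and *Errfi1* were higher in DEX in 7 of 9 leukemias and *Cebpd* lower in 6 of 9. All 6 calls were lost without the replicate block and among the 5 leukemias with ribosomal RNA counts (4 and 7 of the 9 higher at an unadjusted p below 0.05, 0 lower). *Tsc22d3* was also lost without both 2M and 73A, and *Zbtb16* there, without 73A and among the 4 leukemias without ribosomal RNA counts (log2 fold change 0.68 to 2.27 over 21 alternatives).

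**Figure D5:**
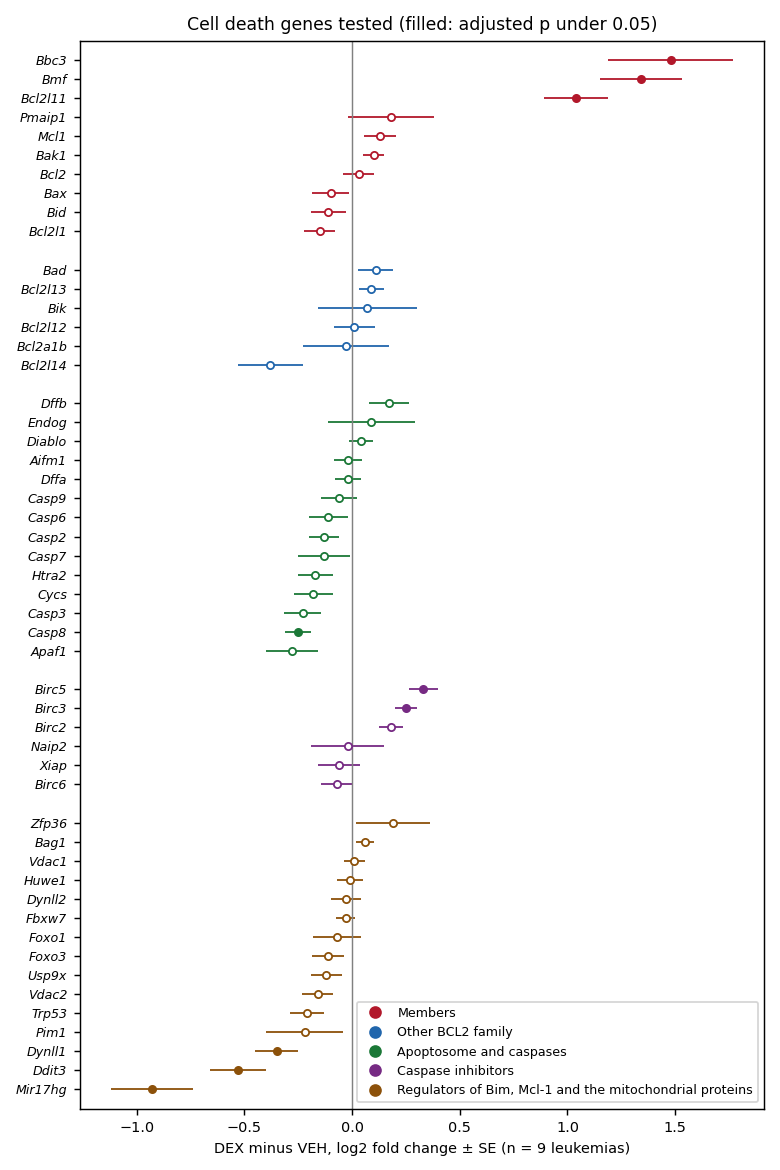
DEX minus VEH log2 fold change ± SE (n = 9 leukemias) of the members and of the other cell death genes tested, by list, with filled points for an adjusted p below 0.05. *Bbc3*, *Bmf* and *Bcl2l11* lie apart at 1.04 to 1.48, and *Mir17hg* is lowest at -0.93.

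Since 3 members were called in the same direction, promoters of the family were searched on both strands for GTAAACA, a motif bound by FOXO factors, and for AGAACA, a half-site of the glucocorticoid receptor. RefSeq windows (GRCm38.p6) from 250 bases before to 50 after a start site were searched for 9 members. *Pmaip1* was left out of this search and of that for BH3 cores. The motif GTAAACA was in 1 of 2 windows of *Bcl2l11* and 1 of 3 of *Bbc3*, in 0 of 3 of *Bmf* and in none of the other 6 members' windows, and 3.65% of 32851 promoters hold it. The half-site AGAACA was in none of the windows of these 9 members, and 19% of promoters hold it. The windows with the motif are printed with it in capitals, starting at -227 in *Bcl2l11* and, as its reverse complement, at -167 in *Bbc3*.
*Bcl2l11* (chr2:128125788-128126087, plus strand): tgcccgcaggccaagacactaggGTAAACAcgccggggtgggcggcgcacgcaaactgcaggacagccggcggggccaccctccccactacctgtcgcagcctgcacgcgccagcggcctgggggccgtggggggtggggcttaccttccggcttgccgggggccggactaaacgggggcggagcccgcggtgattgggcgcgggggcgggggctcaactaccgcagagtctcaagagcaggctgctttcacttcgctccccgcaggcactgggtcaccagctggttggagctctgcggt
*Bbc3* (chr7:16310011-16310310, plus strand): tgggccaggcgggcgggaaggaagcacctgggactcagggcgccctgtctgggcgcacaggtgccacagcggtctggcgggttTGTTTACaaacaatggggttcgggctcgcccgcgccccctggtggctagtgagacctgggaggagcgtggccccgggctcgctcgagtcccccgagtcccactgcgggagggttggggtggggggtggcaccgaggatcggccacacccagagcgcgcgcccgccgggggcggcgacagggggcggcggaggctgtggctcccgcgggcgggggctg
A match is a description of letters and not a bound site. The levels of *Foxo1* (log2 -0.07 ± 0.11 SE, edgeR adjusted p = 0.702) and *Foxo3* (-0.11 ± 0.074, adjusted p = 0.345) were not called.

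*Mir17hg* was followed in the same way, because the miRNAs it hosts are known regulators of *Bcl2l11*. Its level was 25.6 ± 7.07 FPKM (SD, n = 9) in VEH and 13.7 ± 6.16 in DEX columns, lower in 8 of 9 leukemias. The mature miRNAs were not measured in these libraries. Their sequences (RefSeq) are shown for 1 miRNA of each seed of the cluster, with the seed (bases 2 to 8) in capitals. miR-20a-5p shares the seed of miR-17-5p, and miR-19a-3p that of miR-19b-3p.
mmu-miR-17-5p: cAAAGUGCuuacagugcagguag
mmu-miR-18a-5p: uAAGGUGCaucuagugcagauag
mmu-miR-19b-3p: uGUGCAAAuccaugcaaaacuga
mmu-miR-92a-3p: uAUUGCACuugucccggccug
The transcript of *Bcl2l11* with the longest coding sequence has 4218 bases past the stop codon, which hold 2 matches to the seed of miR-17-5p, 1 to that of miR-19b-3p, 2 to that of miR-92a-3p and 0 to that of miR-18a-5p. Among 1189 genes whose 3′ end, chosen alike, is within 20% of that length, 31.5%, 29.3%, 18.6% and 20.8% hold at least 1 match to these seeds. *Bmf* holds 1 match each for miR-17-5p and miR-19b-3p, and *Bbc3* none. Of the 5 matches in *Bcl2l11*, 1 per seed is printed with the bases that pair with the seed in capitals.
miR-17-5p seed match (chr2:128160444-128160466, plus strand): cgactggaGCACTTTactgtctc
miR-19b-3p seed match (chr2:128162399-128162421, plus strand): ctttacgtTTTGCACtgatgaat
miR-92a-3p seed match (chr2:128162441-128162463, plus strand): ctgtacctGTGCAATactgctgt
The motif and seed searches, and *Foxo1* and *Foxo3* beside them, were chosen after the values were seen. Some counts are shared by position as well: the library kit does not mark strand, and 17.7% of the exon bases of *Bid* overlap *Bcl2l13* and 18.2% of those of *Bak1* overlap *Ggnbp1*, both on the opposite strand, so reads from these pairs cannot be told apart there.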

How the data were processed

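RNA from the bone marrow of leukemic mice was selected for poly(A), made into libraries with a TruSeq kit and read as paired ends. Per the labels and the methods, the authors aligned to mm10 with Bowtie 2 and quantified with RSEM; the annotation and the RSEM version are not given in the sources used here. The deposited table holds expected counts, which the authors estimated per gene (its name speaks of FPKM, but 68.3% to 74.5% of the values above 0 are exactly whole as written). Here they were rounded, normalized by TMM and tested with edgeR 4.0.16 in R 4.3.3 (quasi-likelihood, leukemia as a block, Benjamini-Hochberg over the 11339 genes whose mean reached 1 FPKM); DESeq2 1.42.0 was an alternative.

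FPKM was computed from the expected counts, the merged exon length (GENCODE M21, for 96.6% of 39017 genes) and the library total, which ranged from 8226528 to 201222288. Of the 20 columns, 18 from 9 leukemias entered the fits. The study counts 9 leukemias in its RNA sequencing and its text does not list them; leaving out 4638 was a choice made here, and an alternative adds it. The 3 DEX columns of 2M, 73A and 4638 were matched to their leukemia by name but not to 1 sample. The 2 libraries of a leukemia are pairs from 1 transplanted clone. SE is the log2 fold change over the square root of its F value. The joint test between leukemias had the letters as a covariate. The within-leukemia SD is that of log2(FPKM + 1) with the mean DEX minus VEH difference taken out. RefSeq proteins were not used here, and BH3 cores were read from translated GENCODE transcripts.

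The members and all lists were chosen with earlier results of these data known. All members were named. Of each other list at most 6 genes were named by rule, those with the largest fold change among the called, else the 2 with the highest mean FPKM. *Bcl2l15*, *Foxo1*, *Foxo3* and the glucocorticoid-induced genes not called were named outside this rule. Alternatives were another tool, size factors, filters, no block, each leukemia or library left out, 4638 added, splits and a term for ribosomal RNA counts, and libraries thinned to the smallest total. The script was tested on simulated counts.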

Additional observations from a re-analysis of the deposited data

Results flagged for a closer look

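Leukemia 4638 was left out of the reported fits and entered 1 alternative, in which the same 3 members were called. Its 2 libraries gave a signal outside the main measurement for these members. The DEX minus VEH difference there was 1.48 for *Bcl2l11* (4.59 to 12.7 FPKM), 1.08 for *Bmf* (6.50 to 13.6 FPKM) and 0.35 for *Bbc3* (2.42 to 3.06 FPKM) on the log2 scale, each higher in DEX. With 1 pair these are values without a test. *Pmaip1* went from 1.71 to 3.24 FPKM and *Mcl1* from 77.1 to 106 FPKM in the same libraries. Among the members, 30 sets of 9 values (levels in VEH, levels in DEX and changes) were searched for a single leukemia far from the rest, and 0 were found, where chance alone gives about 1.5.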

How the results depend on the processing

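The number of genes called between DEX and VEH columns, 1475, was 8 without the replicate block, 475 in the 4 leukemias without ribosomal RNA counts, 15 in the 5 with them and 465 with a term for them. It was 654 to 2041 when 1 leukemia was left out, and below 1475 by over 1.5 times without 20M (654), 73A (716), 2M (739), 73M (847) or JW81 (966). Without both 2M and 73A, whose DEX columns could not be matched to 1 sample, it was 194 (chosen after seeing the data). DESeq2 called 2169 genes. Of the members, 0 were called without the replicate block and 0 in the 5 leukemias with ribosomal RNA counts, although 2 and 3 members had an unadjusted p below 0.05 in edgeR there. The cause of the lost calls was not tested. The share of all genes at an unadjusted p below 0.05 is not given for any fit. Counts of members or listed genes at that p therefore cannot be set against it. Among the 4 other leukemias 2 members were called, *Bcl2l11* and *Bmf*. In the fits without 1 leukemia 3 were called, always *Bcl2l11*, *Bbc3* and *Bmf*.

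The adjusted p over 21 alternatives ran from 1.24e-10 to 0.122 for *Bcl2l11*, 3.64e-11 to 0.827 for *Bmf* and 3.73e-06 to 0.189 for *Bbc3*, with the direction kept in 21 of 21. The 7 other members were called in none of these, but the sign of *Bax* (-0.25 to 0.02), *Bcl2* (-0.03 to 0.06) and *Mcl1* (-0.03 to 0.33) changed with the setting. Between leukemias 7 to 10 members were called. With the letters left out of that model, *Bcl2l11* (adjusted p = 0.491) and *Bak1* (0.108) were lost. A pseudocount of 0.1 widened the range of *Pmaip1* from 2.66 to 5.01 on the log2 scale, the member with the lowest levels.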
